A study of Drosophila melanogaster with 6 samples.

Results

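The vacuolar proton ATPase (V-ATPase) genes of Drosophila melanogaster were compared between adult flies that overexpressed an antimicrobial peptide and flies that carried only the transgene. Members were taken as the genes whose current symbol begins with Vha followed by a capital letter or a digit. The gene table held 33 of them, and 31 had an array probe set annotated to that gene alone, of 11982 genes so measured. Vha68-1 and Vha68-2, which encode forms of the catalytic subunit A, had none and were not analysed here. The treated group was the da-GAL4 x UAS-AMP cross, in which the widely active daughterless promoter drives GAL4 and GAL4 switches on the peptide transgene. The control was the UAS-AMP stock without the driver. Each group had 3 samples of whole adults, 25 males and 25 females each, with 1 Affymetrix Drosophila Genome 2.0 array per sample. Both groups carried the transgene. The cross differed from the control at least in the driver and in the parent that brought it. Transgene copy number and flies with the driver alone were not analysed here. The labels name neither the peptide nor the age of the flies. They leave unstated whether samples were raised as separate cultures, and the p-values therefore reflect sample-to-sample spread that could be technical.

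The V-ATPase is a rotary pump that spends ATP to move protons across membranes. Its peripheral V1 sector binds and splits ATP and turns a central stalk, which turns a ring of proteolipid subunits in the membrane-bound V0 sector past the proton path in subunit a. It acidifies endosomes and lysosomes in nearly all cells, and in insects it also sits at the apical plasma membrane of transporting epithelia such as the Malpighian (renal) tubule and energises fluid secretion there. In the fly most subunits have several gene copies. One copy of each subunit has been described as forming the plasma-membrane pump of epithelia, and many of the others have been described as restricted to fewer tissues, often the testis. The assignment of copies to the epithelial pump used below was made from that general knowledge and not from the deposited data.

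No V-ATPase gene passed the test for a difference between the groups. With limma, a prior variance that follows the signal, and adjustment over all 18769 probe sets (Benjamini-Hochberg), 0 of 31 genes reached an adjusted p under 0.05. The lowest adjusted p among them was 0.202. Of all genes, 0.868% passed, 0.334% higher and 0.534% lower in the cross. At an unadjusted p under 0.05 there were 4 of the 31 genes, or 12.9%, against 13.8% of all genes. One of these was higher (4.63% of all genes) and 3 were lower (9.18%). The arrays of both groups did not overlap in 5 of the 31 genes, or 16.1%, against 19.8% of all genes. Of these 5, Vha13 and Vha14-2 lay higher in the cross (6.72% of all genes did so) and Vha55, Vha44 and Vha100-5 lower (13.1%). These shares were close to or below those of the whole array. In all, 21 of the 31 genes had a log2 fold change above 0 and 10 below, with a median of 0.05, against a median of -0.002 over all genes.

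Signals are linear probe set intensities in arbitrary units, and log2 fold changes are cross minus control on log2(signal + 1). All 31 genes lay above the background guide, the 95th percentile of bacterial control probe sets, on all 6 arrays. That guide was 90.3 to 123 across arrays. Median signals of the arrays were 767 to 903, and correlations of log2 signals were 0.946 to 0.958 within groups and 0.945 to 0.953 between them. The array of overexpression replicate 2 stood apart in its gonad markers. Of 25 measured testis markers, 22 had their highest signal there, as did 20.1% of all genes. Their summed signal was 305843 on that array, 164307 and 194014 on the other arrays of the cross, and 149279.9 to 206761 in the control. Of the 19 measured ovary markers, none had its highest signal on overexpression replicate 2, and their summed signal was lowest there. Results that rest on this array are given below with and without it. In RNA of whole flies, fewer cells of a type and less RNA per cell cannot be told apart.

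The epithelial form of the pump was measured through 12 of its 13 genes, and 8 had a fold change above 0 and 4 below. Their median log2 fold change was 0.02, and the values ran from -0.32 to 0.23. All 12 gave strong signals, from 17220 to 67925 on any array. Spread between arrays was small, with a median residual SD (log2) of 0.10, against 0.24 over all genes. In 11 of the 12 genes the 95% interval of the difference lay inside a 1.5-fold change in either direction, as it did in 38.3% of all genes. The exception was Vha44.

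**Figure D1:**
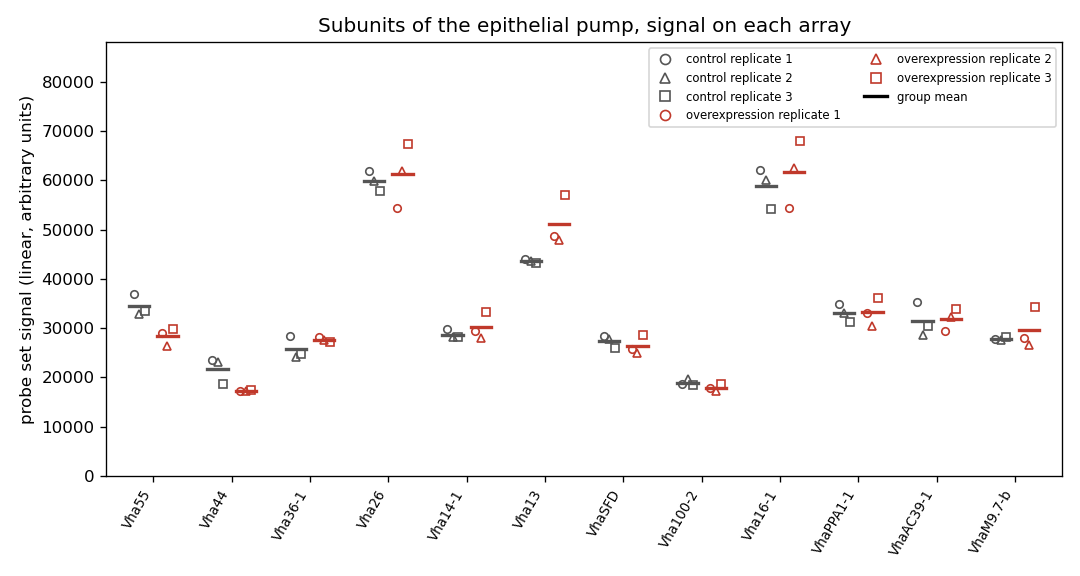
Signal (linear axis from 0, arbitrary units) of the 12 measured subunit genes of the epithelial pump on each of the 6 arrays. Symbols give the replicate, colours the group, and bars the group means. Vha55 and Vha44 lie lower in the cross on all arrays and Vha13 higher, while the groups overlap in the other 9 genes.

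In the V1 sector, Vha55 encodes subunit B, which forms the ATP-binding head together with subunit A. Its signals were 37018, 32955 and 33376 in the control and 28948, 26386 and 29806 in the cross. The 3 arrays of the cross all lay below the 3 of the control. The difference was 1.21-fold (log2 fold change -0.28, 95% interval -0.52 to -0.04), and it did not pass over all genes (limma adjusted p = 0.332).

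Subunit C, encoded by Vha44, links the peripheral stalks to the membrane sector and, in yeast, leaves the complex when V1 and V0 come apart. Vha44 had signals of 23474, 23097 and 18657 in the control and 17220, 17298 and 17407 in the cross. The arrays of the cross were nearly equal to each other, and the third control array lay nearer to them than to the other controls. The fold change was 1.25-fold lower (log2 fold change -0.32, 95% interval -0.59 to -0.05, limma adjusted p = 0.306). Leaving out control replicate 3 moved it to -0.43 (adjusted p = 0.11), still short of the threshold.

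Vha13 encodes subunit G, part of the peripheral stalks that hold the head in place. In the control its signals were 43932, 43602 and 43292, among the most uniform of the family, and in the cross they were 48775, 47808 and 57042. All arrays of the cross were higher, and overexpression replicate 3 was the highest. The difference was 1.17-fold (log2 fold change 0.23, 95% interval -0.02 to 0.48, limma adjusted p = 0.449), and without overexpression replicate 3 it was 0.15 on the log2 scale. Subunit E, the partner of G in the peripheral stalk, is encoded by Vha26. Signals of Vha26 were 61820, 59863 and 57869 in the control and 54359, 61865 and 67353 in the cross. The groups overlapped fully, with a log2 fold change of 0.03 (95% interval -0.24 to 0.29), which was -0.04 with quantile scaling of the arrays.

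The central stalk that carries the rotation consists of subunits D and F. Vha36-1 (subunit D) had signals of 28383, 24055 and 24652 in the control and 28253, 27601 and 27131 in the cross, a log2 fold change of 0.11 (95% interval -0.13 to 0.35). Vha14-1 (subunit F) had signals of 29734, 28125 and 28228 in the control and 29375, 28052 and 33331 in the cross, a log2 fold change of 0.07 (95% interval -0.17 to 0.32). In both genes the groups overlapped. VhaSFD encodes subunit H, which in yeast silences free V1. Its signals were 28386, 27690 and 26051 in the control and 25686, 24861 and 28637 in the cross, again overlapping (log2 fold change -0.05, 95% interval -0.30 to 0.19).

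In the V0 sector none of the 5 epithelial genes had groups that lay apart, and their log2 fold changes ran from -0.08 to 0.08. Vha100-2 encodes the epithelial form of subunit a, which holds the half-channels for protons. It had signals of 18600, 19706 and 18370 in the control and 17763, 17305 and 18576 in the cross, a log2 fold change of -0.08 (95% interval -0.30 to 0.14). Vha16-1 encodes the proteolipid c of the rotating ring and had 2 probe sets. The stronger gave 62120, 60047 and 54190 in the control and 54405, 62461 and 67925 in the cross, and the other gave 47607, 40869 and 41209 against 40578, 43762 and 49006. Their log2 fold changes were 0.06 (95% interval -0.21 to 0.34) and 0.04 (95% interval -0.23 to 0.31), so both read the gene alike. On both, overexpression replicate 3 was the highest array.

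VhaPPA1-1 encodes the larger ring proteolipid c''. Its signals were 34990, 33070 and 31277 in the control and 33068, 30401 and 36053 in the cross. The group means were 33112 ± 1857 and 33174 ± 2828 (SD, n = 3 each), with a 95% interval of the log2 difference from -0.25 to 0.25. VhaAC39-1 encodes subunit d, which seats the central stalk on the ring. It had signals of 35293, 28672 and 30515 in the control and 29353, 32255 and 33870 in the cross (log2 fold change 0.02, 95% interval -0.25 to 0.29). The small membrane subunit e is encoded by VhaM9.7-b, whose signals were 27695, 27668 and 28113 in the control and 28048, 26668 and 34220 in the cross. Only overexpression replicate 3 departed from the others in VhaM9.7-b (log2 fold change 0.08, 95% interval -0.19 to 0.35). That array was the highest in 7 of the 12 epithelial genes, while it was the highest in 11.8% of all genes. It was also the highest in 7 of 17 measured lysosomal genes and in 8 of 19 measured ovary markers. These counts were made after the values were seen. Its median signal over all probe sets, 767, was the lowest of the 6 arrays. The summed signal of all genes was highest there, at 54735979, against 50883578 to 52841553 on the other arrays. The share of bright genes in general that were highest on this array was not tested.

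Accessory proteins of the V0 sector gave the same picture of overlap. VhaAC45, the homologue of the mammalian accessory subunit that guides the pump's assembly and sorting, had signals of 29742, 30860 and 28330 in the control and 28025, 30181 and 34199 in the cross. Its log2 fold change was 0.05 (95% interval -0.20 to 0.31). The related VhaAC45RP had signals of 3153, 2961 and 2613 in the control and 2452, 2760 and 2425 in the cross, where only 1 array reached into the control range. Its difference was 1.14-fold (log2 fold change -0.19, 95% interval -0.49 to 0.11, limma adjusted p = 0.584).

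**Figure D2:**
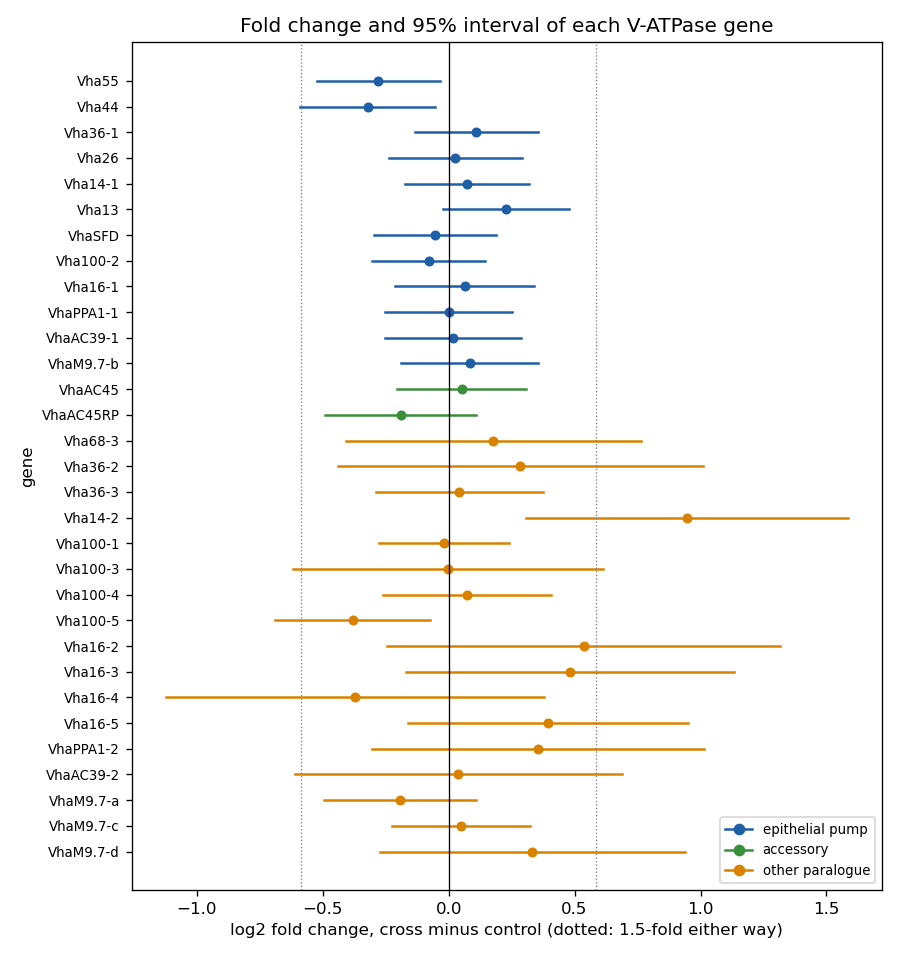
Log2 fold change (points, cross minus control) and 95% interval (lines) from limma for the 31 measured V-ATPase genes, with dotted lines at 1.5-fold in either direction. The epithelial and accessory genes lie close to 0 with short intervals, with Vha55 and Vha44 farthest below 0 and Vha13 farthest above among them, and Vha14-2 has the largest value, 0.95. No gene passed an adjusted p of 0.05.

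The other paralogues were measured through 17 genes, of which 12 had a fold change above 0 and 5 below. Their median log2 fold change was 0.07, and values ran from -0.38 to 0.95. Signals lay between 231 and 8560. The spread between arrays was wider, with a median residual SD of 0.34, against 0.24 over all genes. Of the 17 intervals, 5 (29.4%) lay inside a 1.5-fold change, against 38.3% of all genes. In 10 of the 17 genes overexpression replicate 2 gave the highest signal, against 20.1% of all genes and 0 of the 12 epithelial genes, a count made after the values were seen. Without that array the median of the paralogues was 0.01. Testis markers were highest on the same array, as given above, and their part in these values was not tested.

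**Figure D3:**
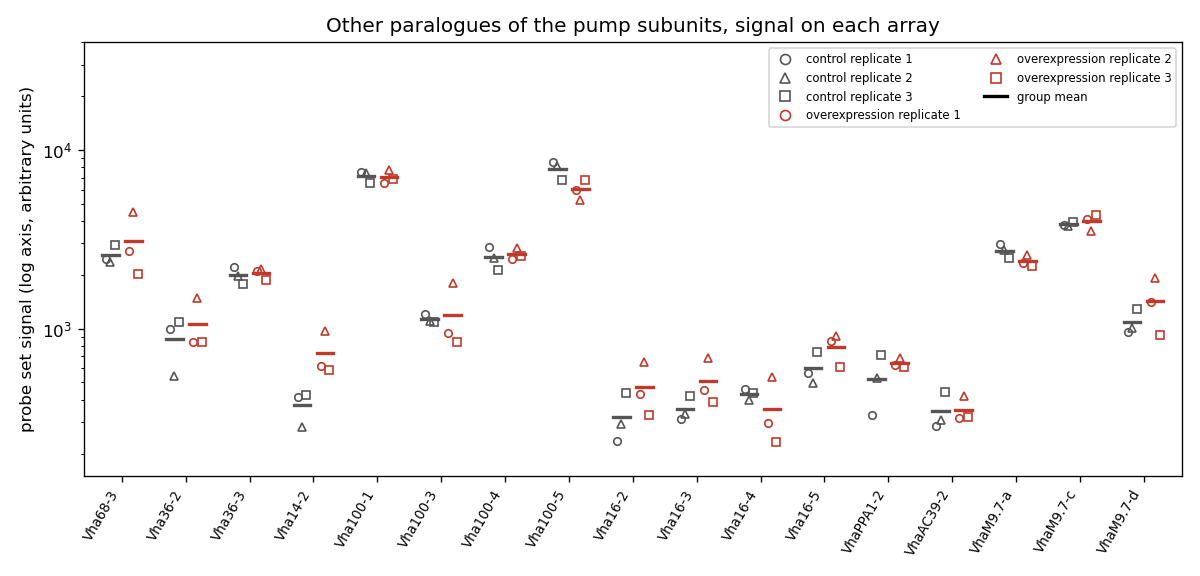
Signal (log axis, arbitrary units) of the 17 measured paralogues outside the epithelial pump on each array. Symbols give the replicate, colours the group, and bars the group means. Overexpression replicate 2 (red triangles) is the highest array in 10 of the 17 genes, and the groups lie apart only in Vha14-2 and Vha100-5.

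Vha14-2, the second gene for the stalk subunit F, had the largest fold change of the family. It had signals of 414, 280 and 426 in the control and 622, 968 and 590 in the cross. Every array of the cross was above every control array, with overexpression replicate 2 the highest. The group means were 374 ± 80.9 and 727 ± 209 (SD, n = 3 each), 1.93-fold apart on the log2(signal + 1) scale (log2 fold change 0.95, 95% interval 0.31 to 1.58). The gene did not pass (limma adjusted p = 0.202, with 0.126 to 0.541 over the alternatives run), and without overexpression replicate 2 its log2 fold change was 0.72. Its partner copy Vha14-1 had a log2 fold change of 0.07, and the difference between both copies was not tested.

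In yeast and mammals the forms of subunit a direct the pump to different membranes, and the fly has 5 genes for it. Vha100-5 had signals of 8560, 8091 and 6828 in the control and 5962, 5254 and 6823 in the cross. The groups lay apart only just, since the highest array of the cross fell short of the lowest control array by a few units. Its difference was 1.30-fold (log2 fold change -0.38, 95% interval -0.69 to -0.08, limma adjusted p = 0.286), and it was -0.29 on the log2 scale without overexpression replicate 2. Vha100-1, known for its role in neurons and synaptic vesicles, had signals of 7490, 7409 and 6511 in the control and 6555, 7717 and 6870 in the cross, a log2 fold change of -0.02 (95% interval -0.28 to 0.24). It was -0.09 without overexpression replicate 2, and its sign turned with median centring, to 0.03. Vha100-4, which has been described as needed for acid secretion by copper cells of the midgut, had signals of 2881, 2488 and 2139 in the control and 2470, 2830 and 2557 in the cross (log2 fold change 0.07, 95% interval -0.26 to 0.41). Its log2 fold change was 0.02 without overexpression replicate 2. Vha100-4 and Vha100-2 lie next to each other on chromosome 3R in the Release 6 gene table.

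Vha100-3 was uniform in the control, at 1201, 1109 and 1086, and scattered in the cross, at 951, 1790 and 843. One array of the cross thus lay above all controls and the others below, and the group means were 1132 ± 61.4 and 1195 ± 519 (SD, n = 3 each). The log2 fold change was -0.0036 (95% interval -0.62 to 0.61), and without overexpression replicate 2 it was -0.34. Vha68-3 is the measured copy of the catalytic subunit A. Its signals were 2460, 2357 and 2952 in the control and 2706, 4506 and 2030 in the cross, with 1 array above the control range, 1 inside it and 1 below. Its log2 fold change was 0.18 (95% interval -0.41 to 0.76), which turned to -0.14 without overexpression replicate 2. Vha68-3 neighbours Vha68-2 on chromosome 2L, but the latter could not be set beside it.

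Among the copies of the ring proteolipid c, Vha16-2 had signals of 235, 293 and 437 in the control and 433, 649 and 327 in the cross. Vha16-3, separated from it by 1 gene on chromosome 3L, had signals of 314, 335 and 421 in the control and 452, 690 and 387 in the cross. Both had overexpression replicate 2 as their highest array, and their log2 fold changes were 0.54 (95% interval -0.24 to 1.32) and 0.48 (95% interval -0.17 to 1.13). Without that array they were 0.27 and 0.24. Vha16-5 had means of 600 ± 125 and 790 ± 162 (SD, n = 3 each; log2 fold change 0.39, 95% interval -0.16 to 0.95, and 0.28 without overexpression replicate 2). Vha16-4 had a fold change below 0, with 457, 398 and 438 in the control and 297, 535 and 231 in the cross. Its log2 fold change was -0.37 (95% interval -1.12 to 0.38), and it was -0.71 without overexpression replicate 2. None of these 4 genes passed (limma adjusted p = 0.533 to 0.671).

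VhaPPA1-2, the second gene for proteolipid c'', lies 1 gene away from VhaPPA1-1 on chromosome 3R. Its control arrays differed widely, at 330, 528 and 717, while those of the cross were 626, 685 and 609. The log2 fold change of 0.35 (95% interval -0.31 to 1.01) was 0.06 without control replicate 1. VhaAC39-2, the second gene for subunit d, had means of 346 ± 85.0 and 352 ± 59.4 (SD, n = 3 each; log2 fold change 0.04, 95% interval -0.61 to 0.69). Without overexpression replicate 2 the log2 fold change of VhaAC39-2 turned to -0.10.

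The D subunit copy Vha36-2 had means of 874 ± 291 and 1058 ± 371 (SD, n = 3 each; log2 fold change 0.28, 95% interval -0.44 to 1.01), and without overexpression replicate 2 the log2 fold change was 0.01. Vha36-3, the other copy, was less scattered, with means of 1989 ± 228 and 2042 ± 144 (log2 fold change 0.04, 95% interval -0.29 to 0.37). Its log2 fold change was 0.0049 without overexpression replicate 2. Of the genes for the small subunit e, VhaM9.7-a had signals of 2976, 2753 and 2479 in the control and 2332, 2591 and 2246 in the cross (log2 fold change -0.19, 95% interval -0.50 to 0.11). VhaM9.7-c had means of 3837 ± 122 and 3983 ± 415 (SD, n = 3 each; log2 fold change 0.05, 95% interval -0.22 to 0.32). VhaM9.7-d had signals of 962, 1013 and 1296 in the control and 1417, 1929 and 922 in the cross. Its log2 fold change was 0.33 (95% interval -0.27 to 0.94), and without overexpression replicate 2 it was 0.08.

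**Figure D4:**
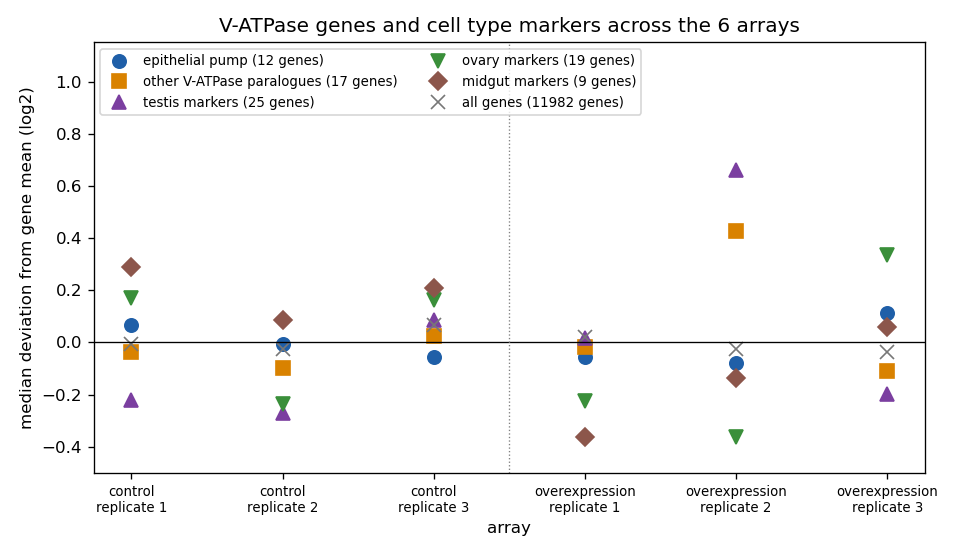
Median over the genes of each list of the deviation of log2 signal from the gene's own mean over the 6 arrays. Overexpression replicate 2 is the highest array for the V-ATPase paralogues (0.43) and for the testis markers (0.66), while the epithelial pump genes stay between -0.08 and 0.11 on all arrays.

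Seen array by array, the epithelial genes and the other paralogues departed from their means on different arrays. The median deviation of the epithelial genes was 0.07, -0.01 and -0.06 on the control arrays and -0.06, -0.08 and 0.11 on those of the cross. For the paralogues it was -0.03, -0.10 and 0.03 in the control and -0.02, 0.43 and -0.11 in the cross. Testis markers had -0.22, -0.27 and 0.09 in the control and 0.02, 0.66 and -0.20 in the cross, highest on the same array as the paralogues. Ovary markers were highest on overexpression replicate 3, at 0.34, where the epithelial genes also had their highest median. The part of tissue content in the values of the pump genes was not tested.

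Genes that assemble or regulate the pump were described from a list of 7, of which 5 were measured. None passed, with 3 above 0, 2 below and a median log2 fold change of 0.01. Rbcn-3B, a subunit of the complex that helps V1 join V0, had signals of 7615, 7003 and 5452 in the control and 4100, 4404 and 3751 in the cross. All arrays of the cross were below the control, by 1.63-fold (log2 fold change -0.70, 95% interval -1.03 to -0.38), and the gene fell short of the threshold (limma adjusted p = 0.0736). For mtd, a gene of the TLDc family whose members bind the pump, the log2 fold change was -0.21 (95% interval -0.53 to 0.12). Mitf, a transcription factor known to activate V-ATPase genes in the fly, was dim and had means of 389.6 ± 98.9 and 389.8 ± 73.6 (SD, n = 3 each; 95% interval of the log2 difference -0.63 to 0.65). ATP6AP2, an accessory protein of the pump whose symbol falls outside the rule for members, had a log2 fold change of 0.09 (95% interval -0.20 to 0.39).

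In the Malpighian tubule the pump works together with channels and exchangers, and 18 of 23 genes listed for tubule transport were measured. None passed, against 0.868% of all genes. Of the 18, 15 had a fold change below 0, with a median of -0.14, against 6019 of all 11982 genes. At an unadjusted p under 0.05 (limma), 5 of the 18 were lower, against 9.18% of all genes. In the same test 1 was higher, against 4.63%. The chloride channel family gene Best2 was higher in the cross, at 5017, 5630 and 5562 against 3684, 3865 and 3420 (log2 fold change 0.56, 95% interval 0.31 to 0.82, limma adjusted p = 0.0641). Alp4, an alkaline phosphatase of the tubule, was lower, at 13079, 12684 and 11326 against 19117, 17101 and 16564 (log2 fold change -0.51, 95% interval -0.76 to -0.26, limma adjusted p = 0.0906). As tubule markers, Alp4, the potassium channel gene Irk3 and the chloride channel gene SecCl were measured, 3 of 6 listed. These 3 markers are also among the 18 transport genes above, so they are not a separate reading. Their summed signal was 21831 to 25154 in the control and 15615 to 17683 in the cross, and none of the 3 was at or below the background guide. Alp4 alone gave 71.7% to 76.0% of that sum. Irk3 had a log2 fold change of -0.53 (limma adjusted p = 0.170) with groups apart, and SecCl one of -0.15 (limma adjusted p = 0.700) with groups overlapping. The 12 epithelial pump genes had summed signals of 394591 to 431446 in the control and 395253 to 451350.0 in the cross, which overlapped.

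Lysosomal genes, whose enzymes depend on the acid that the pump makes, were measured in 17 of 23 cases. Of these, 11 had a fold change above 0 and 6 below (median 0.08). At an adjusted p under 0.05 (limma), 0 rose and 1 fell, against 0.334% and 0.534% of all genes. The groups did not overlap in 5 of the 17, or 29.4%, against 19.8% of all genes, with 3 higher and 2 lower in the cross. The gene that fell was Hexo2, a hexosaminidase, at 2947, 2891 and 3302 in the cross against 5142, 4745 and 5364 in the control. Hexo2 was 1.67-fold lower (log2 fold change -0.74, limma adjusted p = 0.0274), and it passed in 4 of the 12 alternatives, with adjusted p from 0.0251 to 0.218. It did not pass with median centring (0.0794), a constant prior (0.164), the replicate block (0.133), or without control replicate 1 (0.218), control replicate 2 (0.106), overexpression replicate 1 (0.147), overexpression replicate 2 (0.0651) or overexpression replicate 3 (0.0525). Ect3, a galactosidase, had a log2 fold change of 0.39 (95% interval 0.05 to 0.74) and did not pass (limma adjusted p = 0.333).

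Lists of markers of other cell types that hold the pump were read in the same way. Of 9 measured midgut markers all had a fold change below 0 (median -0.57, and -0.28 without overexpression replicate 1). At an unadjusted p under 0.05 (limma), 5 of the 9 were lower, against 9.18% of all genes. The summed signal of the 9 markers was 363945 to 432216 in the control and 286363 to 398559.6 in the cross. Among them 1 passed, the lysozyme gene LysX, at 1026, 699 and 1130 in the control and 173, 142 and 307 in the cross (limma adjusted p = 0.0236). LysX passed in 6 of the 12 alternatives and did not with a constant prior (0.140), the replicate block (0.102), or without control replicate 1 (0.179), control replicate 2 (0.0858), control replicate 3 (0.0527) or overexpression replicate 1 (0.147). No marker in the neuronal, testis and ovary lists passed. Of 10 measured neuronal markers, 8 had a fold change below 0 (median -0.21), with summed signals of 19604 to 24352 in the control and 18296 to 20845 in the cross. Testis markers had 21 of 25 above 0 (median 0.24, which was -0.04 without overexpression replicate 2). Ovary markers had 11 of 19 below 0, with a median of -0.12. That median turned to 0.06 without overexpression replicate 2 and to 0.09 without control replicate 1. Of the markers in these lists, 1 testis marker lay at or below the background guide on all arrays. The part of these tissues in the values of the pump genes was not tested.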

How the data were processed

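The authors' deposited values are probe set intensities on a linear scale, 1 column for each of the 6 arrays, all used. Per the labels, biotinylated cRNA was made from 2 ug of total RNA. How the authors summarised and scaled the probes is not stated in the sources used here, but a mean trimmed by 2% at each end was 2500.1 on every array. From 18952 probe sets, 183 Affymetrix controls were left out. Of the other 18769, 13647 had 1 gene symbol in the platform annotation, 402 several and 4720 none listed. Current names were found for 13544 of the first kind in the gene table of Release 6. The probe set with the highest mean log2 signal stood for a gene. The background guide used 27 Bacillus control probe sets.

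Differences on log2(signal + 1) were fitted with limma 3.58.1 in R 4.3.3 (trended, robust prior, 2-sided, Benjamini-Hochberg over all probe sets). The fit was also run on simulated data with independent noise. Those data held no array or tissue effects, so they cannot show how the fit behaves on these arrays. The trended prior was chosen because the residual SD (median, log2) was 0.94 in the dimmest 33.3% of probe sets and 0.16 in the brightest. Members, gene lists and fit were chosen with earlier results of these data known. Named were all members, and in the lists of other genes at most 2 with the smallest p, plus Mitf; ATP6AP2, Irk3, SecCl and LysX were added after their values were seen. Alternatives were a constant prior, median centring, quantile scaling, the replicate number as a block, a pseudocount of 16, omission of the dimmest 33.3%, and omission of each array.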

Additional observations from a re-analysis of the deposited data

How the results depend on the processing

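The count of 0 V-ATPase genes past the test held under all 12 alternatives, and the smallest adjusted p among members was 0.11 to 0.541, both ends reached with 1 control array left out. At an unadjusted p under 0.05, 4 members lay in the fit described. Over all probe sets, 147 passed, against 0 with a constant prior and 8 with the replicate number as a block, and 7 to 225 with 1 array left out. Deviations of same-numbered arrays from their group means correlated at -0.022, 0.00066 and -0.10. Those deviations sum to 0 over the 3 arrays of a group, so the correlations cannot settle whether the replicate numbers pair the arrays. With the replicate block the lowest adjusted p among members was 0.418 (limma), and no member passed with or without it. The median of all genes moved by less than 0.1 under each scaling. The median of the epithelial genes was -0.0071 with quantile scaling and -0.04 to 0.08 with 1 array left out, and that of the paralogues 0.01 to 0.23. Of the 31 members, 17 kept their sign throughout. With quantile scaling the log2 fold change turned to 0.045 for Vha100-3, -0.0051 for Vha16-1, -0.038 for Vha26 and -0.0091 for VhaAC39-1, and with median centring to 0.031 for Vha100-1 and 0.046 for Vha100-3; the cause was not tested. With 1 array left out, 14 members changed sign. Their ranges were -0.086 to 0.032 for Vha100-1, -0.34 to 0.21 for Vha100-3, -0.034 to 0.18 for Vha100-4, -0.0097 to 0.15 for Vha16-1, -0.045 to 0.11 for Vha26, -0.028 to 0.47 for Vha36-2 and -0.040 to 0.13 for Vha36-3. They were -0.14 to 0.44 for Vha68-3, -0.047 to 0.10 for VhaAC39-1, -0.096 to 0.23 for VhaAC39-2, -0.027 to 0.12 for VhaAC45, -0.025 to 0.155 for VhaM9.7-b, -0.013 to 0.14 for VhaM9.7-c and -0.061 to 0.062 for VhaPPA1-1. The number of arrays, 6, limits the precision, most for the dimmer paralogues.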
